A study of Mus musculus with 14 samples.

Results

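The matrix metalloproteinases and their tissue inhibitors were followed through the 14 RNA-seq libraries. The group consisted of 10 genes chosen by symbol, namely the 7 proteinase genes Mmp2, Mmp3, Mmp9, Mmp10, Mmp13, Mmp14 and Mmp19 and the 3 inhibitor genes Timp1, Timp2 and Timp3, and each of them was found in both tables of 23284 genes. EpH4 cells are mammary epithelial cells of the mouse, kept as a line in 10% serum, and EpRas cells are their derivative transformed with oncogenic H-Ras (the G12V form), kept in 4% serum. Both lines were left untreated or were treated with 1 ng/ml TGF-β3 for 48 h, with 2 untransfected libraries for each of these 4 groups. Another 6 libraries came from EpRas cells transfected with a negative control siRNA (siNC), with siEtv4_1 plus siEtv5_1 (pair 1) or with siEtv4_2 plus siEtv5_2 (pair 2), each with and without TGF-β3 and with 1 library per condition. Every EpRas library carried the transforming Ras, so the siRNA libraries had no counterpart without it, and serum content cannot be told apart from transformation in any comparison of the lines.

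Matrix metalloproteinases are zinc-dependent endopeptidases that are made as inactive zymogens and that, once activated, cut collagens, gelatin, proteoglycans, cell surface proteins and growth factor carriers. The tissue inhibitors bind the active enzymes, and Timp2 also takes part in the activation of the Mmp2 zymogen by the membrane-anchored Mmp14. In the mammary gland these genes are known from branching of the ducts, from involution after lactation and from invasion of tumors. RNA levels say nothing of zymogen activation or of inhibitor binding. In these bulk samples fewer expressing cells and less RNA per cell cannot be told apart.

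Values are FPKM (sequenced fragments per unit of gene length and of library size), which allows levels to be set side by side between genes. Libraries differed in depth, between 0.609 and 1.36 times the first EpH4 library in the untransfected table and between 1 and 1.74 times the untreated siNC library in the siRNA table. All 6 mammary epithelial genes (Krt8, Krt18, Krt7, Epcam, Cdh1 and Cldn7) of the labelled cell type lay above 1 FPKM in every library. Of the 5 leukocyte and macrophage markers, Ptprc, Emr1 and Itgam were listed at 0 in all untransfected libraries, while Cd68 was at 0.293 to 7.13 FPKM and Csf1r at 0.103 to 6.23 FPKM.

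The authors' loci, on mm10, placed Mmp13 at chr9:7272514-7283333, Mmp3 at chr9:7445822-7455974 and Mmp10 at chr9:7502360-7510240. These 3 genes belong to a run of 10 Mmp genes that spans 427 kb of chromosome 9. Of the other genes in this run, Mmp7, Mmp8, Mmp20 and Mmp27 were listed at 0 in all 14 libraries, Mmp1a and Mmp1b stayed below 1 FPKM, and Mmp12 reached 5 FPKM in a single library. Mmp9 was placed at chr2:164948251-164955846, Mmp14 at chr14:54431604-54441258, Mmp2 at chr8:92827328-92853420 and Mmp19 at chr10:128790910-128804370. Timp2 lay at chr11:118301061-118355411. Timp1 lies within Syn1 and Timp3 within Syn3, and the authors' loci (chrX:20848543-20920918 and chr10:86048746-86498896) cover both genes of each pair. Syn1 did not exceed 0.8 FPKM and Syn3 did not exceed 0.262 FPKM, and whether strand was used in counting was not given in the sources used here. Of the 50-base stretches of the annotated Mmp3 and Mmp10 transcripts, 7.99% and 8.37% also occur in another transcript of the family, each chiefly in the other of the pair, so a part of their reads can be split between them. For Mmp2, Mmp9, Mmp13, Mmp14, Mmp19 and the Timp genes this share was 0%.

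The sequences before the start sites of the chromosome 9 genes are shown because Mmp13, Mmp10, Mmp3 and Mmp12 were the genes of the family above 5 FPKM that lay at least 2-fold below siNC on the log2(FPKM + 1) scale with both siRNA pairs and TGF-β3. Each run is the 250 bases before the annotated start on the plus strand of GRCm38.p6 (the same assembly as mm10), from RefSeq, which held such a window for 7 of the 10 members. Capitals mark matches on either strand to 3 motifs, TGANTCA (AP-1), AGGAAG (PEA3, the binding word of the Etv4 subfamily of ETS factors) and ACCACA (RUNX).
Mmp13, chr9:7272264-7272513: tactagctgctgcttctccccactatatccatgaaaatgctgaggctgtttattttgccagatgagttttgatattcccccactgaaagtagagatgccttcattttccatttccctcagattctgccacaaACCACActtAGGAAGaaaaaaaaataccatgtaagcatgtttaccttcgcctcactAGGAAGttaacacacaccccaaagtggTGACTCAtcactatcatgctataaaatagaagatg
Mmp3, chr9:7445572-7445821: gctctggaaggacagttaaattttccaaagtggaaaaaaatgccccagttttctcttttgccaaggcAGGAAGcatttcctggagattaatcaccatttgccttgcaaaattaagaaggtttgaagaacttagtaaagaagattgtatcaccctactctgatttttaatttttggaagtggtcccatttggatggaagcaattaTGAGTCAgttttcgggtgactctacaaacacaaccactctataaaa
Mmp10, chr9:7502092-7502341: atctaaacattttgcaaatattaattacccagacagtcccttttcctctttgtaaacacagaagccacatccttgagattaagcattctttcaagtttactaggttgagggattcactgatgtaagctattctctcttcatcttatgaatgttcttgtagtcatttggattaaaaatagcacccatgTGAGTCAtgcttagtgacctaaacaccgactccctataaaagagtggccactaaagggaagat
Mmp12, chr9:7347124-7347373: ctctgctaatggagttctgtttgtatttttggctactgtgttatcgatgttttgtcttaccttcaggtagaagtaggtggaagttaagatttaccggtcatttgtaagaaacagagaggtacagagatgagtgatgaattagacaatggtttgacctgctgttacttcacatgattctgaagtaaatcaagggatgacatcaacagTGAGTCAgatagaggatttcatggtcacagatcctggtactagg

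Each of the 4 windows held 1 match to the AP-1 motif, at 35 to 29 bases before the start in Mmp13, 46 to 40 in Mmp3, 63 to 57 in Mmp10 and 44 to 38 in Mmp12. This motif was found in 6.75% of the 32851 windows of the same length in the RefSeq table. The PEA3 motif, found in 29.5% of all windows, occurred at 109 to 104 and at 62 to 57 bases before the start of Mmp13 and at 183 to 178 bases before that of Mmp3. The RUNX motif, in 14% of all windows, was matched in Mmp13 at 118 to 113 bases before the start, upstream of the more distant PEA3 match. The window of Mmp14 also had a RUNX match, at 114 to 109 bases before the start. All 3 motifs together were found in 100 windows (0.304%), Mmp13 included. Mmp10 and Mmp12 had no PEA3 match in these 250 bases (the window of another annotated start of Mmp12 had a PEA3 match alone), Timp1 had 2, Mmp14 and Timp3 had 1 each, and Timp2 had none of the 3 motifs. These are matches of letters only, and no binding was measured in the tables used here.

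Of the 10 genes, 8 reached 5 FPKM in at least 1 untransfected library and were tested with limma on log2(FPKM + 1) among 9100 genes. Mmp3 passed this limit only through 1 library of EpH4 cells with TGF-β3 and Mmp13 only through libraries with TGF-β3, so both entered through groups where they were high, and the counts of members below are descriptions. Mmp2, a gelatinase of connective tissue cells, lay between 0.0699 and 0.591 FPKM, and Mmp19, a proteinase of basement membrane substrates, lay between 0.0978 and 0.461 FPKM, and neither was tested. The levels of Mmp2 rested on 1 to 6 reads per library.

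Mmp13 encodes collagenase-3, which cuts fibrillar collagen. Its levels were 0.964 and 1.37 FPKM in EpH4 cells and 26.5 and 27.0 FPKM after TGF-β3. EpRas cells had 4.63 and 4.74 FPKM without and 36.8 and 31.8 FPKM with TGF-β3. The 4 groups did not overlap, and the order from low to high was EpH4, EpRas, EpH4 with TGF-β3 and EpRas with TGF-β3. The lowest of these values corresponds to 14 reads and the highest to 459.

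Mmp10 encodes stromelysin-2, which cuts proteoglycans and laminin and activates other proteinase zymogens. Its levels were 1.69 and 3.07 FPKM in EpH4 cells, 31.4 and 30.5 FPKM in EpH4 cells with TGF-β3, 23.8 and 24.8 FPKM in EpRas cells and 206 and 185 FPKM in EpRas cells with TGF-β3. It followed the same order of groups as Mmp13, and the treated EpRas mean was 6.32 times the treated EpH4 mean. Mmp3 encodes stromelysin-1, a close relative of Mmp10. Its levels were low throughout, at 1.60 and 0.864 FPKM in EpH4 cells, 3.39 and 5.75 FPKM with TGF-β3, 3.67 and 4.42 FPKM in EpRas cells and 2.23 and 3.19 FPKM in EpRas cells with TGF-β3. The untreated EpH4 libraries lay lowest, the treated EpRas libraries next, and the other 2 groups overlapped above them, and the values rested on 11 to 58 reads.

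Mmp9 encodes gelatinase B, which cuts denatured collagen and basement membrane collagen. Its levels were 40.6 and 43.3 FPKM in EpH4 cells and 3933 and 3205 FPKM in EpH4 cells with TGF-β3, the highest level of any gene of the group. The intervals that the authors' quantification gave for the treated EpH4 values were wide, from 0 to 43773.5 and from 0 to 33026.4 FPKM. EpRas cells had 32.2 and 24.2 FPKM without and 335 and 596 FPKM with TGF-β3, so both treated EpRas libraries stayed below both treated EpH4 libraries. Mmp14 encodes the membrane-anchored MT1-MMP. Its levels were 74.2 and 59.9 FPKM in EpH4 cells and 226 and 208 FPKM with TGF-β3, against 52.7 and 48.5 FPKM in EpRas cells and 67.3 and 67.2 FPKM with TGF-β3. The treated EpRas libraries lay within the range of the untreated EpH4 libraries.

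Among the inhibitors, Timp1, a soluble inhibitor of most secreted proteinases, was at 230 and 231 FPKM in EpH4 cells and at 926 and 878 FPKM after TGF-β3. In EpRas cells it was at 308 and 153 FPKM without and at 398 and 682 FPKM with TGF-β3, and the spread within these pairs was the widest of the inhibitors. Timp2 was at 143 and 169 FPKM in EpH4 cells, 173 and 177 FPKM in EpH4 cells with TGF-β3, 159 and 163 FPKM in EpRas cells and 99.1 and 88.8 FPKM in EpRas cells with TGF-β3. The treated EpRas libraries lay below and the treated EpH4 libraries above all others. Timp3, which binds to the extracellular matrix, was at 73.8 and 81.7 FPKM in EpH4 cells and at 73.4 and 81.9 FPKM with TGF-β3. It was lower in untransfected EpRas cells, at 27.4 and 22.3 FPKM without and 12.1 and 10.8 FPKM with TGF-β3.

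**Figure D1:**
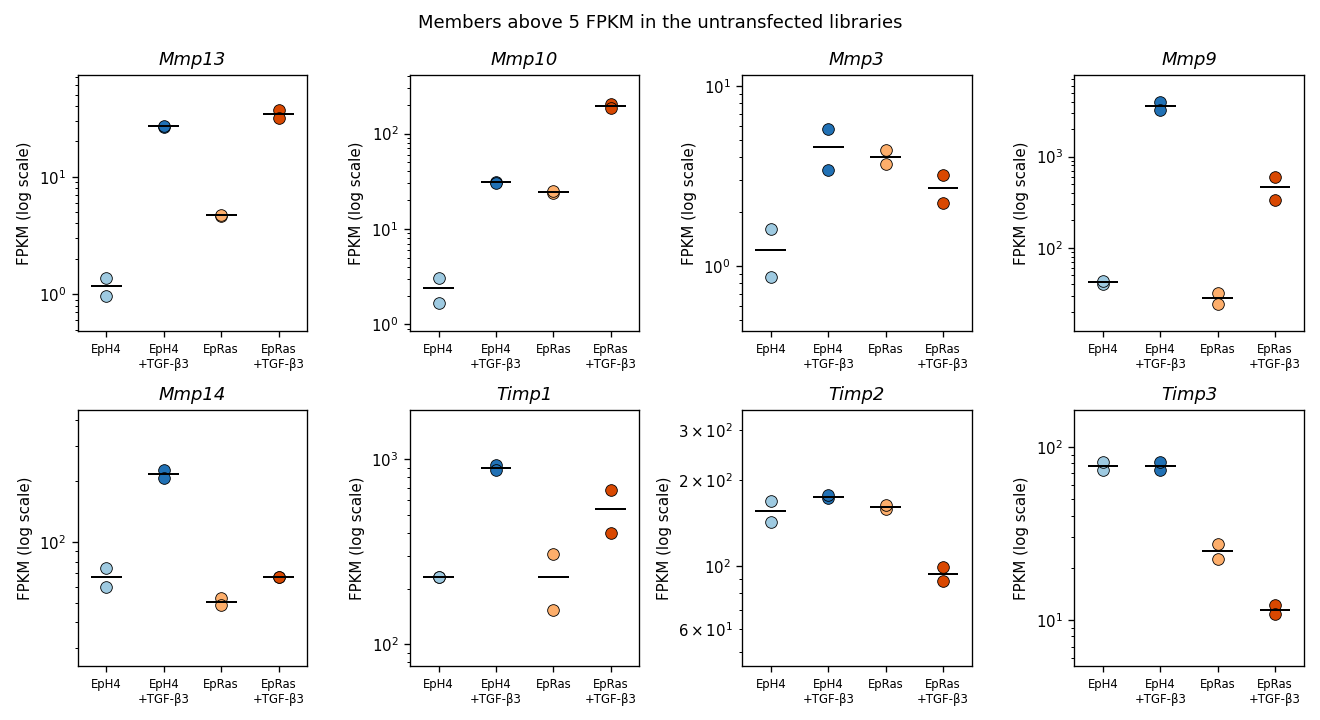
FPKM (log axes that differ between panels) of the 8 members above 5 FPKM in the 4 untransfected groups; each point is 1 library and each bar the mean of 2. Mmp13 and Mmp10 were highest in EpRas cells with TGF-β3 (36.8 and 31.8, and 206 and 185 FPKM), Mmp9, Mmp14 and Timp1 in EpH4 cells with TGF-β3, and Timp3 was lowest in EpRas cells with TGF-β3 (12.1 and 10.8 FPKM).

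In untreated cells, the comparison of EpRas with EpH4 cells asked which of these genes differed with Ras transformation. Mmp10 was higher by 2.94 on the log2 scale (SE 0.21, adjusted p = 0.000161, 2 libraries a group), Mmp13 by 1.40 (SE 0.16, adjusted p = 0.00149) and Mmp3 by 1.19 (SE 0.27, adjusted p = 0.0234). In FPKM the ratios of the group means were 10.2, 4.01 and 3.29. Timp3 fell by 1.61 (SE 0.17, adjusted p = 0.000916), and the mean of EpH4 cells was 3.13 times that of EpRas cells. Among all genes tested 8.45% were called higher and 9.11% lower, beside 3 and 1 of the 8 members. The differences of Mmp9 (-0.57, adjusted p = 0.218), Mmp14 (-0.39, adjusted p = 0.143), Timp1 (-0.09, adjusted p = 0.895) and Timp2 (0.05, adjusted p = 0.849) were not past the threshold, and the 95% interval of that of Timp1, -0.93 to 0.75, was wide. The summed basal or myoepithelial markers were also lower, at 105 to 117 FPKM in EpRas cells against 334 to 395 FPKM in EpH4 cells. Most of these sums was Krt14, at 103 and 115 against 327 and 386 FPKM, and Trp63 was lower as well. Acta2 of the same list was higher in EpRas cells, at 1.24 and 1.33 against 0.108 and 0.636 FPKM. The fibroblast markers were at 12.2 to 13.5 against 22.6 to 26.8 FPKM, and the leukocyte and macrophage markers at 4.5 to 5.21 against 1.5 to 2.09 FPKM. The fibroblast list was split. Col1a1 (1.80 and 1.57 against 18.7 and 21.25 FPKM) and Col1a2 (0.735 and 0.638 against 2.38 and 3.53) were lower in EpRas cells. Pdgfrb (7.14 and 8.11 against 0.915 and 0.988 FPKM) and Pdgfra (2.33 and 3.16 against 0.668 and 0.986) were higher. The part of these lists in the result was not tested. The call of Mmp3 was lost without EpH4 replicate 2 (adjusted p = 0.128), EpRas replicate 1 (adjusted p = 0.0840) or EpRas replicate 2 (adjusted p = 0.121). It was also lost with a pseudocount of 5 FPKM, at a difference of 0.54 (limma, adjusted p = 0.0562).

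With TGF-β3 in both lines, 5 members differed. Mmp10 was again higher in EpRas cells, by 2.62 (SE 0.21, adjusted p = 2e-04), while Mmp9 fell by 2.99 (SE 0.29, adjusted p = 0.000427) and Mmp14 fell by 1.67 (SE 0.16, adjusted p = 0.000444). Timp3 fell by 2.66 (SE 0.17, adjusted p = 6.28e-05) and Timp2 fell by 0.89 (SE 0.15, adjusted p = 0.00613). The treated EpH4 mean was 7.67 times that of EpRas cells for Mmp9, 3.23 times for Mmp14, 6.78 times for Timp3 and 1.86 times for Timp2. These were 1 member called higher and 4 called lower, against 8.92% and 12.3% of all genes. Mmp13 differed by 0.34 (95% interval -0.03 to 0.72, adjusted p = 0.172), Mmp3 by -0.56 (adjusted p = 0.179) and Timp1 by -0.79 (adjusted p = 0.161). The summed fibroblast markers were 222 to 247 FPKM in treated EpH4 and 8.42 to 11.1 FPKM in treated EpRas cells, the basal markers 798 to 864 and 64.1 to 66.8 FPKM, and the mammary epithelial markers 7890 to 8330 and 2390 to 4050 FPKM. Within the fibroblast list Pdgfra went the other way, at 2.27 and 2.07 FPKM in treated EpH4 and 2.90 and 2.565 FPKM in treated EpRas cells. The part of these lists in the result was not tested. Timp2 was no longer called without EpH4 replicate 1 or 2 of the TGF-β3 group (adjusted p = 0.0548 and 0.0574).

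In EpH4 cells, TGF-β3 was followed by higher levels of all 5 tested proteinases and of 1 inhibitor. Mmp9 rose by 6.37 (SE 0.29, adjusted p = 6.07e-05), which was a ratio of 85.1 between the group means. Mmp13 rose by 3.69 (SE 0.16, adjusted p = 5.71e-05), Mmp10 by 3.27 (SE 0.21, adjusted p = 0.000192) and Mmp14 by 1.69 (SE 0.16, adjusted p = 0.000889), with ratios of 22.9, 13.0 and 3.24. Timp1 rose by 1.96 (SE 0.36, adjusted p = 0.0168) and Mmp3 by 1.31 (SE 0.27, adjusted p = 0.0253). Of all genes 6.48% rose and 2.91% fell, and 6 of the 8 members rose, Mmp3 included, which entered the test only through a treated EpH4 library. Timp2 (0.17, adjusted p = 0.552) and Timp3 (-0.00, 95% interval -0.39 to 0.39, adjusted p = 1) did not pass. The summed markers of other cell types were also higher, though not every gene of the lists. The 6 fibroblast markers summed to 22.6 to 26.8 FPKM without and 222 to 247 FPKM with TGF-β3, with Dcn and Lum at 0 in both groups, and the 5 basal markers to 334 to 395 and 798 to 864 FPKM. Of the basal markers, Krt14 (327 and 386 to 851 and 784 FPKM) and Acta2 rose, while Trp63 fell (7.37 and 8.60 to 4.64 and 5.52 FPKM). The 5 leukocyte and macrophage markers summed to 1.5 to 2.09 and 6.52 to 8.49 FPKM, with Ptprc, Emr1 and Itgam at 0. Csf1r rose from 0.185 and 0.103 to 6.23 and 5.74 FPKM. Cd68 was at 1.90 and 1.40 FPKM without and 0.293 and 2.75 FPKM with TGF-β3. The 6 mammary epithelial markers summed to 4710 to 5990 FPKM without and 7890 to 8330 FPKM with TGF-β3. Within this list Cldn7 went the other way, at 191 and 208 FPKM without and 155 and 159 FPKM with TGF-β3. The part of these markers in the result was not tested.

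The calls of Timp1 and Mmp3 in EpH4 cells were lost when single libraries were left out. Timp1 was not called when any 1 of the 4 EpH4 libraries was left out (adjusted p = 0.0862 and 0.0936 without untreated replicate 1 or 2, and 0.129 and 0.106 without TGF-β3 replicate 1 or 2), while its difference stayed between 1.93 and 2.00. Mmp3 was not called without untreated EpH4 replicate 1 (adjusted p = 0.0562) or 2 (0.151), without treated EpH4 replicate 1 (0.0510) or 2 (0.172), or without untreated EpRas replicate 1 or 2 (0.0543 each). Its call was also lost with a pseudocount of 5 FPKM, at a difference of 0.61 (limma, adjusted p = 0.0534). With only the compared groups in the limma fit it was lost too (adjusted p = 0.0711).

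In EpRas cells, TGF-β3 was followed by higher levels of 3 proteinases and lower levels of 2 inhibitors. Mmp9 rose by 3.95 (SE 0.29, adjusted p = 0.000655), Mmp10 by 2.95 (SE 0.21, adjusted p = 0.000613) and Mmp13 by 2.63 (SE 0.16, adjusted p = 0.000347). The ratios of the means were 16.5, 8.04 and 7.32. Timp3 fell by 1.05 (SE 0.17, adjusted p = 0.0166) to 0.461 of the untreated mean, and Timp2 fell by 0.77 (SE 0.15, adjusted p = 0.0394) to 0.584 of it. Of all genes 1.9% rose and 1.92% fell. The summed basal markers were 105 to 117 FPKM without and 64.1 to 66.8 FPKM with TGF-β3, and the mammary epithelial markers 3980 to 5070 and 2390 to 4050 FPKM. Acta2 of the basal list went the other way, at 1.24 and 1.33 FPKM without and 1.89 and 2.26 FPKM with TGF-β3. The fibroblast markers were 12.2 to 13.5 and 8.42 to 11.1 FPKM, and the leukocyte and macrophage markers 4.5 to 5.21 and 5.64 to 8.27 FPKM. The part of these lists in the result was not tested. Timp1 (1.26, adjusted p = 0.128), Mmp14 (0.40, adjusted p = 0.287) and Mmp3 (-0.45, adjusted p = 0.487) were not called.

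The calls of the inhibitors in EpRas cells were also lost when single libraries were left out, at differences that stayed between -0.85 and -0.69 for Timp2 and between -1.19 and -0.91 for Timp3. Timp2 was lost when any of the 8 libraries was left out, with an adjusted p of 0.0596 without either untreated EpH4 replicate, 0.112 without either treated EpH4 replicate, 0.194 and 0.189 without untreated EpRas replicate 1 and 2, and 0.0636 and 0.0760 without treated EpRas replicate 1 and 2. Timp3 was lost without treated EpH4 replicate 1 or 2 (0.0529 each), untreated EpRas replicate 1 (0.124) or 2 (0.0558) and treated EpRas replicate 2 (0.0515). When the fit held the 2 EpRas groups alone, Timp2 had an adjusted p of 0.217 and Timp3 of 0.156, while Mmp9, Mmp10 and Mmp13 were still called.

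**Figure D2:**
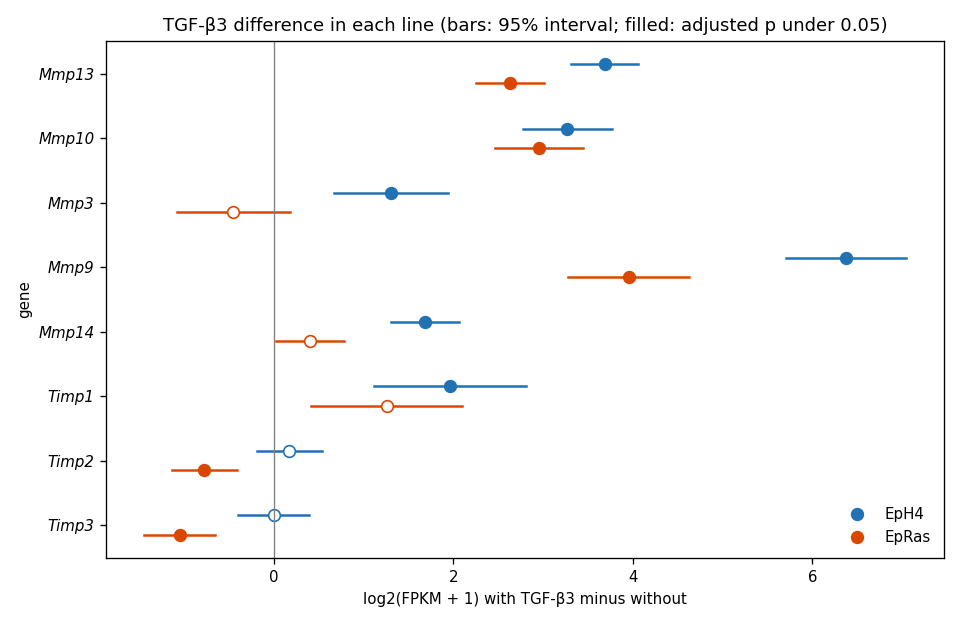
Difference in log2(FPKM + 1) between cells with and without TGF-β3 for 8 members in EpH4 cells (blue) and EpRas cells (orange); points are limma estimates from 2 libraries a group, bars 95% intervals, and filled points have an adjusted p under 0.05. Mmp9 rose by 6.37 in EpH4 and 3.95 in EpRas cells, and Timp3 fell by 1.05 in EpRas cells.

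Whether the response to TGF-β3 differed between the lines was tested with the interaction term. On the log2(FPKM + 1) scale all 8 estimates were below 0, with a median of -1.05 against -0.03 over all genes. The estimates share the same libraries, and Mmp3 was tested only through a treated EpH4 library. The common sign and the median are therefore descriptions. None of the 8 was called by limma at an adjusted p under 0.05, which 0.802% of all genes were. An unadjusted p under 0.05 was reached by 6, against 10.9% of all genes. Mmp9 came closest, with a response smaller in EpRas cells by a difference of -2.42 (95% interval -3.37 to -1.47, adjusted p = 0.0537). It was called without treated EpRas replicate 2 (difference -2.83, adjusted p = 0.0165) and under 5 alternative settings, and its adjusted p over all alternatives ranged from 0.0165 to 0.293. Mmp14 followed at -1.28 (95% interval -1.82 to -0.75, adjusted p = 0.0649), and Mmp13 was at -1.05 (95% interval -1.59 to -0.52, adjusted p = 0.128). Mmp10, at -0.32 (95% interval -1.01 to 0.38, adjusted p = 0.738), had the smallest difference on this scale. With a pseudocount of 5 FPKM, Mmp10 rose by 2.29 in EpH4 and by 2.771 in EpRas cells, so the direction of its difference turned. At that pseudocount Mmp13 rose by 2.365 in EpH4 and by 2.018 in EpRas cells, which was a smaller difference than on the log2(FPKM + 1) scale. Mmp3 (-1.76, adjusted p = 0.128), Timp2 (-0.95, adjusted p = 0.152), Timp3 (-1.05, adjusted p = 0.145) and Timp1 (-0.70, adjusted p = 0.659) completed the set.

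The make-up of the proteinase transcripts differed between groups. Mmp14 held 62.0% and 55.0% of the summed FPKM of the 7 proteinase genes in EpH4 cells and 44.7% and 45.3% in EpRas cells. After TGF-β3, Mmp9 held 93.2% and 92.2% in EpH4 cells but 51.7% and 67.4% in EpRas cells. Mmp10 held 31.8% and 20.9% in EpRas cells with TGF-β3 and 0.743% and 0.878% in EpH4 cells with TGF-β3, and Mmp13 held 5.68% and 3.60% against 0.628% and 0.777%. The summed proteinase FPKM was 0.226 to 0.268 times the summed inhibitor FPKM in untreated EpH4 cells and 0.239 to 0.317 times in untreated EpRas cells. It was 3.06 and 3.60 times in EpH4 cells and 1.13 and 1.27 times in EpRas cells with TGF-β3. These are ratios of transcripts, not of protein, and they were not tested. In treated EpH4 cells the shares and ratios rest on the Mmp9 values, whose intervals from the quantification were wide.

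**Figure D3:**
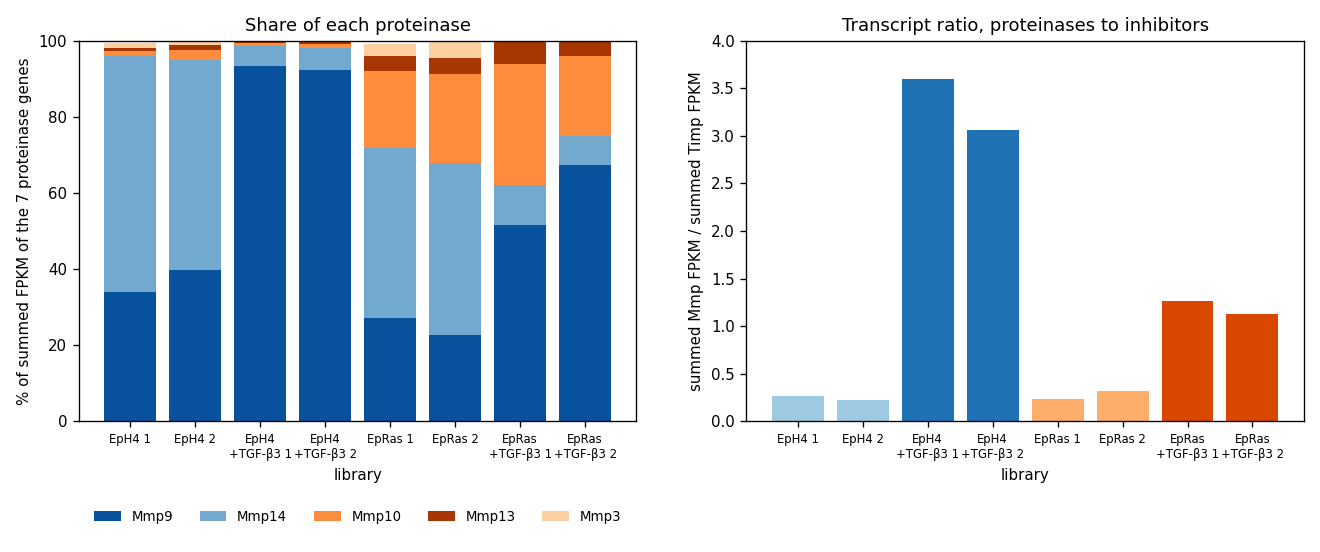
Left, share (%) of Mmp9, Mmp14, Mmp10, Mmp13 and Mmp3 in the summed FPKM of the 7 proteinase genes in each untransfected library; right, the summed FPKM of the 7 proteinase genes divided by that of the 3 inhibitor genes. Mmp9 fills 93.2% and 92.2% of the bars of EpH4 cells with TGF-β3, where the ratio was 3.60 and 3.06.

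The siRNA libraries asked how the members depend on Etv4 and Etv5, ETS factors of the PEA3 subfamily. The targets themselves were lowered in each case. Etv4 was at 57.4 FPKM with siNC and at 20.2% of that with pair 1 and 48.5% with pair 2 without TGF-β3, and at 64.3 FPKM with siNC and 19.6% and 29.4% of that with TGF-β3. Etv5 was at 8.85 and 5.34 FPKM with siNC, and at 18.3% and 14.2% of that without and 23.2% and 22.5% with TGF-β3. Each condition was 1 library, so no difference below has a replicate check or a p-value, and both pairs were set against the same siNC library. The 95% intervals given are exact binomial intervals for the reads and cover counting error only.

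Mmp13 was lower with both pairs in both conditions. It was at 4.46 FPKM with siNC, 0.801 with pair 1 and 0.684 with pair 2 without TGF-β3, and at 22.5, 5.80 and 3.92 FPKM with TGF-β3. This was 18.0% (95% interval 10.4 to 29.6) and 15.3% (8.38 to 26.4) of siNC without and 25.8% (21.4 to 30.8) and 17.4% (13.8 to 21.7) with TGF-β3. The reads behind these levels were 82, 20 and 16 without and 719, 147 and 89 with TGF-β3. TGF-β3 still went with a higher level under knockdown, since the ratio of treated to untreated was 5.04 (4.01 to 6.41) with siNC, 7.24 (4.52 to 12.2) with pair 1 and 5.72 (3.34 to 10.4) with pair 2, and these intervals overlap.

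Mmp10 was also lower with both pairs, to a lesser extent than Mmp13. Its levels were 16.2 FPKM with siNC, 6.09 with pair 1 and 7.42 with pair 2 without TGF-β3, and 80.6, 37.8 and 29.2 FPKM with TGF-β3, that is 37.6% and 45.8% of siNC without and 46.8% and 36.3% with TGF-β3. Mmp3 was at 11.2 FPKM with siNC, 1.05 with pair 1 and 7.22 with pair 2 without TGF-β3, so that the pairs differed, at 9.41% (5.32 to 15.6) and 64.4% (49.5 to 83.6) of siNC. With TGF-β3 it was at 6.77, 0.977 and 2.18 FPKM, at 14.4% (8.02 to 24.2) and 32.2% (21.2 to 47.5) of siNC. The level of Mmp3 with siNC lay above the 0.864 to 5.75 FPKM of all untransfected libraries, which come from a separate run of the quantification.

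Mmp9 and Mmp14 did not show this pattern. Mmp9 was at 10.7 FPKM with siNC, 4.05 with pair 1 and 11.9 with pair 2 without TGF-β3, and at 319, 250 and 309 FPKM with TGF-β3, where the pairs stood at 78.3% and 96.7% of siNC. Mmp14 was at 56.4, 79.3 and 75.6 FPKM without and at 97.9, 201 and 153 FPKM with TGF-β3. Both pairs thus lay above siNC, at 141% and 134% without and 206% and 156% with TGF-β3. Mmp2 was at 0.460 to 1.54 FPKM in the siRNA libraries, highest with pair 1 without TGF-β3 (44 reads, against 11 with siNC). Mmp19 did not exceed 1.11 FPKM and was listed at 0 with pair 1 and TGF-β3.

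Of the inhibitors, Timp1 was at 142 FPKM with siNC, 90.6 with pair 1 and 88.4 with pair 2 without TGF-β3, and at 530, 307 and 389 FPKM with TGF-β3. The pairs stood at 63.6% and 62.1% of siNC without and at 57.9% and 73.4% with TGF-β3. Timp2 was at 164, 196 and 183 FPKM without and at 97.3, 136 and 137 FPKM with TGF-β3, so that both pairs lay above siNC in both conditions. Timp3 was at 61.9, 41.5 and 28.1 FPKM without and at 104, 103 and 57.5 FPKM with TGF-β3, and only pair 2 lay clearly below siNC in the treated cells, at 55.4% against 99.1% with pair 1. Each of these Timp3 levels lay above the 10.8 to 27.4 FPKM of the untransfected EpRas libraries. The treated siNC and pair 1 levels also lay above the 73.4 to 81.9 FPKM of the EpH4 libraries. The tables come from separate runs, and this gap was not tested.

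**Figure D4:**
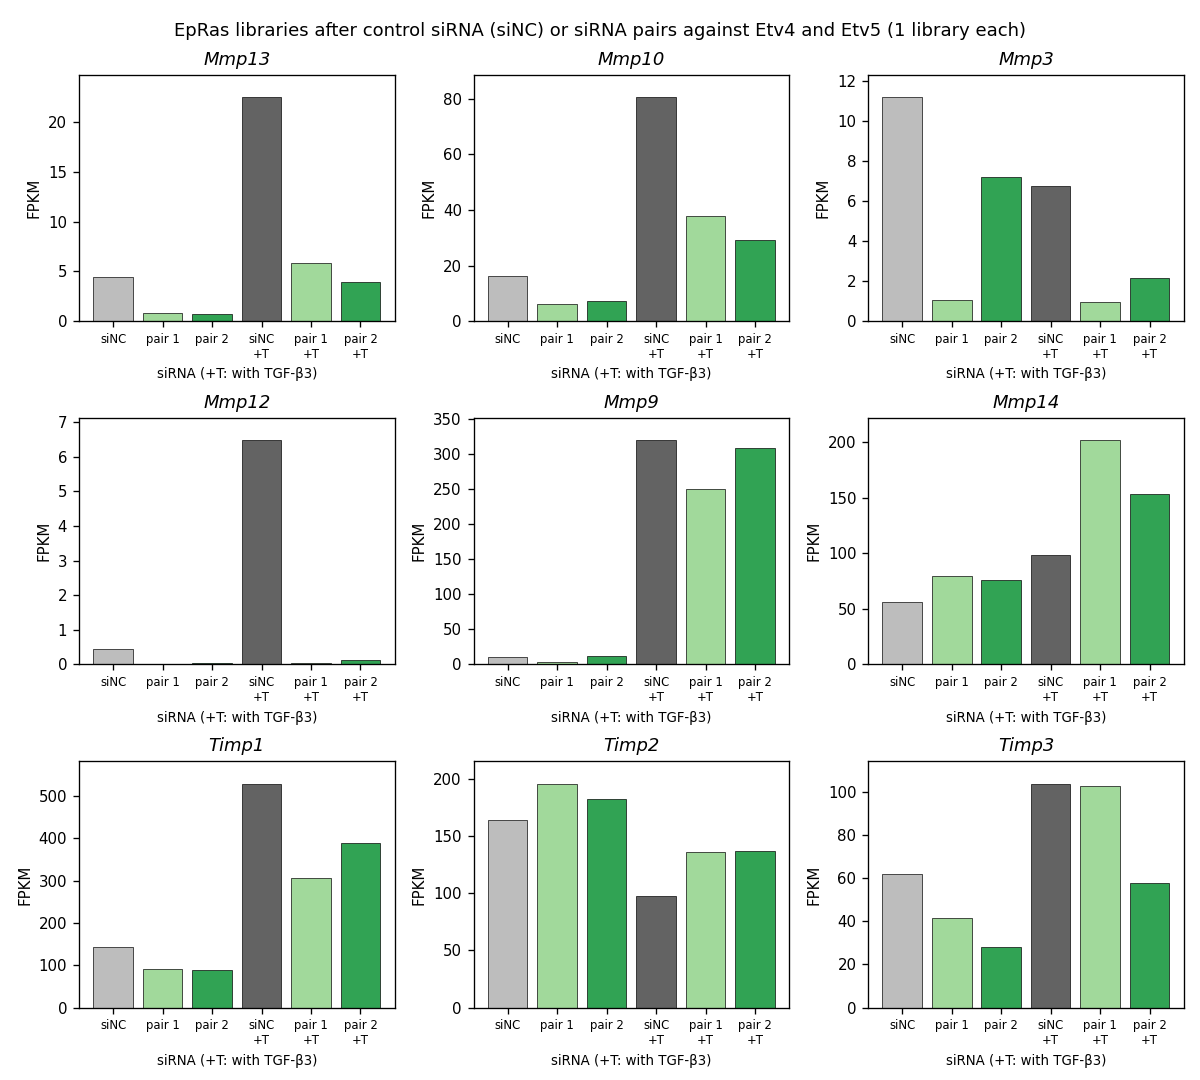
FPKM of 8 members and of Mmp12 in the 6 EpRas siRNA libraries (1 bar is 1 library, +T marks TGF-β3). Mmp13 and Mmp10 are lower than siNC with both pairs in both conditions, Mmp12 is seen chiefly in the treated siNC library (6.47 FPKM), and Mmp14 and Timp2 are higher than siNC with both pairs.

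Counted by the rule that both pairs lie at least 2-fold from siNC on the log2(FPKM + 1) scale, 2 of the 8 members above 5 FPKM in this table (Mmp13 and Mmp10) were lower without TGF-β3 and 3 (Mmp13, Mmp10 and Mmp3) with it, and 0 were higher. The same rule took 2.49% of all 9094 genes as lower in each condition, and 1.54% and 1.33% as higher. On this scale Mmp13 differed from siNC by -1.60 and -1.70 without and -1.79 and -2.26 with TGF-β3, and Mmp10 by -1.28 and -1.03 and by -1.07 and -1.43. The median over the 8 members was -0.93 with pair 1 and -0.63 with pair 2 without TGF-β3 and -0.57 and -0.64 with it, while that over all genes lay between 0.01 and 0.04. Mmp13 reached 5 FPKM only with siNC and with pair 1 under TGF-β3, and Mmp3 only in both siNC libraries and with pair 2 without TGF-β3, so both passed the limit through the libraries where they were high. The basal markers summed to 109 FPKM with siNC and to 260 and 365 FPKM with the pairs without TGF-β3, and to 141, 416 and 258 FPKM with it. The fibroblast markers summed to 5.5 FPKM with siNC and to 24.6 and 16.5 FPKM with the pairs without TGF-β3, and to 11.6, 43.1 and 22.4 FPKM with it. Of the basal markers, Acta2 was at 0.49 FPKM with siNC and TGF-β3, 202 FPKM with pair 1 and 13.2 FPKM with pair 2. The leukocyte and macrophage markers were lower, at 6.48 FPKM with siNC and 3.31 and 5 FPKM with the pairs without TGF-β3. With TGF-β3 they were at 11.5, 5.1 and 6.99 FPKM. The endothelial markers were at 0.585, 0.0484 and 0.0347 FPKM without and 2.01, 0.0993 and 0.254 FPKM with TGF-β3. Pdgfra of the fibroblast list was lower with both pairs and TGF-β3, at 6.79 FPKM with siNC against 2.33 and 3.86. The part of these lists in the result was not tested. With a pseudocount of 5 FPKM no member passed the rule without TGF-β3.

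TGF-β3 in the siNC libraries was followed by a level at least 2-fold higher of 4 of the 8 members, Mmp9 (4.77 on the log2 scale), Mmp10 (2.25), Mmp13 (2.10) and Timp1 (1.89), and 3.23% of all genes passed in this direction. In the same libraries the fibroblast markers summed to 5.5 FPKM without and 11.6 FPKM with TGF-β3, the leukocyte and macrophage markers to 6.48 and 11.5 FPKM, the endothelial markers to 0.585 and 2.01 FPKM and the basal markers to 109 and 141 FPKM, and their part in the result was not tested. No member was at least 2-fold lower, which 2.51% of all genes were. Mmp14 (0.79), Timp3 (0.74), Mmp3 (-0.65) and Timp2 (-0.75) lay between. Timp3 was higher with TGF-β3 in all 3 siRNA conditions, at ratios of 1.68, 2.47 and 2.05, whereas it was lower with TGF-β3 in both untransfected EpRas libraries.

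Of the 17 other family genes in the tables, Mmp11 was the only one tested in the untransfected libraries, at 7.95 to 15.7 FPKM, and it was called in none of the 5 comparisons. Mmp12, the macrophage elastase, passed the 2-fold rule with both pairs in the treated cells, but it reached 5 FPKM only in the treated siNC library, the reference of both pairs. It was at 6.47 FPKM (285 reads) with siNC and TGF-β3 and at 0.0287 FPKM (1 read) with pair 1 and 0.128 FPKM (4 reads) with pair 2. This was 0.443% (95% interval 0.0112 to 2.49) and 1.98% (0.534 to 5.11) of siNC. The untreated siNC library had 0.435 FPKM (11 reads), and all untransfected libraries had 0 to 0.233 FPKM, so the level was seen in 1 library of EpRas cells. The summed leukocyte and macrophage markers were also highest in that library, at 11.5 FPKM against 3.31 to 6.99 in the other siRNA libraries, through Cd68 (6.52 FPKM) and Csf1r (5.01 FPKM), while Ptprc, Emr1 and Itgam were at 0 there. Endothelial markers summed to 2.01 FPKM there against at most 0.585 elsewhere in the siRNA table.

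A list of 18 genes that activate, anchor, bind or clear these proteinases was followed in the same fits, and 11 were tested in the untransfected libraries. In EpRas against EpH4 cells without TGF-β3, 3 were higher, namely Lrp1, an endocytic receptor that clears proteinases (1.40, adjusted p = 0.00484), Cd44, which can hold Mmp9 at the cell surface (1.16, adjusted p = 0.00999), and Plaur, the urokinase receptor (1.05, adjusted p = 0.00840). Of all genes 8.45% were called higher and 9.11% lower in this comparison. The convertase Pcsk6 fell by 1.68 (adjusted p = 0.00165) and Thbs1, a matrix glycoprotein, fell by 1.15 (adjusted p = 0.00372). Pcsk6 was at 9.50 to 16.0 FPKM in EpH4 and 2.28 to 4.37 FPKM in EpRas libraries. It thus passed the limit of 5 FPKM only through the line where it was high, and its counts in both comparisons of the lines are descriptions. With TGF-β3, 2 were higher (Cd44 and Plaur) and 5 lower, beside 8.92% and 12.3% of all genes, among them Lcn2, a lipocalin that forms a complex with Mmp9, which fell by 3.93 (adjusted p = 0.000319). The others that fell were Pcsk6, Plau, Thbs1 and Sdc1.

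TGF-β3 in EpH4 cells was followed by higher levels of 4 genes of this list and a lower level of 1, beside 6.48% and 2.91% of all genes. Plau, which encodes urokinase, rose by 2.00 (adjusted p = 0.000957), Furin, a convertase that activates Mmp14, by 1.47 (adjusted p = 0.00212), and Thbs1 and Lrp1 by 1.2 each (adjusted p = 0.00470 and 0.0139). Cav1, the caveolar coat protein, fell by 1.80 (adjusted p = 0.00211). In EpRas cells, where 1.9% of all genes rose and 1.92% fell, Furin rose by 0.92 (adjusted p = 0.0301), while Lcn2 fell by 2.21 (adjusted p = 0.0166) and Cav1 fell by 1.97 (adjusted p = 0.00302). Lcn2 was low in these cells, at 6.86 and 2.54 FPKM without and 0.305 and 0 FPKM with TGF-β3. The calls of this list were not followed through the alternative settings. With the siRNA pairs, Cd44 passed the 2-fold rule without TGF-β3, at 128 FPKM with siNC, 41.2 with pair 1 and 58.6 with pair 2. Sdc1, a heparan sulfate proteoglycan, passed it with TGF-β3, at 1038 FPKM with siNC, 291 with pair 1 and 478 with pair 2. The other 8 of the 10 genes of the list above 5 FPKM passed it in neither condition, and 2.49% of all genes passed it as lower in each.

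The genes whose levels were most like those of Mmp13 over the 14 libraries, after each table was centred on its own mean, were Ptk2b (Pearson r = 0.948), Myo9b (0.942), Nudt18 (0.941), Tmcc3 (0.939) and Fndc3b (0.938) among 8680 genes. Mmp10 ranked 27th with an r of 0.902, ahead of Timp1 (0.818) and Mmp9 (0.796), while Mmp14 (0.440) and Mmp3 (0.347) ranked far below and Timp3 (-0.095) and Timp2 (-0.616) were negative. For Mmp9 the closest were Pla2g16 (0.986), Clu (0.983), Zmiz1 (0.981), Rhob (0.974) and Fam101b (0.974), and Timp1 ranked 22nd with 0.952. The libraries share groups and tables, so these values describe likeness over few conditions and carry no p-value.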

How the data were processed

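RNA was measured in EpH4 and EpRas cells, 8 untransfected and 6 siRNA libraries. After poly(A) selection the authors built directional libraries for Ion Proton sequencing, mapped the reads to mm10 (TopHat2 2.0.11) and deposited FPKM per gene and library from 2 separate Cuffdiff runs (Cufflinks 2.2.0, versions per the submitters' processing notes), with the interval Cuffdiff gives. The labels state that transfected and untransfected samples were processed independently, so tests stayed within a table. Every per-sample column was mapped to a sample and 0 were left unused. Genes without an OK status (3 and 2) were left out, and genes with a maximum of at least 5 FPKM were tested (9100 and 9094).

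The comparisons used the moderated linear model of limma 3.58.1 (two-sided, R 4.3.3) on log2(FPKM + 1), which understates the change of low genes, in 1 fit over all 8 untransfected libraries, with Benjamini-Hochberg adjustment over all genes tested and a threshold of 0.05. With 2 libraries a group, p-values measure the spread between these samples. The siRNA libraries (1 per condition) were compared by differences and ratios without a test. The deposited tables give no read totals. For genes with 1 start site, FPKM that were whole multiples (within 0.02 plus a small part of the number) of the value of 1 read, with a step within 10% of that expected from transcript length, gave read numbers and relative depths. Genes were named as all members, and as those of the other family genes and the 18 listed genes that were called at least once or passed the 2-fold rule, plus the 5 genes most like Mmp13 and Mmp9. Members and lists were chosen with earlier results of these data known, and 1 further listed gene is not reported here. The limma fit was tested on simulated data. Alternatives were other pseudocounts (0.1 and 5 FPKM), filters, scalings, limma-trend, fits of the compared groups only, a replicate block and each library left out. Promoter windows came from RefSeq on GRCm38.p6, and the remaining steps ran in Python 3.11.15 (scipy 1.17.1, pandas 2.3.3, numpy 2.4.6).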

Additional observations from a re-analysis of the deposited data

Results flagged for a closer look

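For 5 of the genes followed here, all libraries with TGF-β3 lay on one side of the untreated libraries in one group of cells and on the other side in another, and no test that was run called the responses different. Of these, 3 are members. Mmp3 was higher with TGF-β3 in both EpH4 libraries than in both untreated ones and lower in both EpRas libraries, where the difference of -0.45 was not called (limma, adjusted p = 0.487), and the difference between the responses was -1.76 on the log2 scale (limma, adjusted p = 0.128). Timp2 had the same order of libraries, with 0.17 in EpH4 cells that was not called (limma, adjusted p = 0.552) and a difference between the responses of -0.95 (limma, adjusted p = 0.152), and its call in EpRas cells was lost when any library was left out. Timp3 was lower with TGF-β3 in both untransfected EpRas libraries and higher in all 3 siRNA conditions of EpRas cells (1 library each), by 0.74 on the log2 scale with siNC, and this difference between the tables was not tested because they come from separate runs. Of the other genes, Lcn2 had a difference between the responses of -2.79 (limma, adjusted p = 0.0649) and Mmp11 one of -0.74 (limma, adjusted p = 0.372), both with higher libraries under TGF-β3 in EpH4 cells and lower ones in EpRas cells.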

How the results depend on the processing

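Of 20 member calls in the 5 comparisons of untransfected libraries, 14 were kept under every alternative run and 6 were lost under at least 1, and none changed direction. The 6 were Mmp3 (EpRas against EpH4 cells without TGF-β3, and TGF-β3 in EpH4 cells), Timp1 (TGF-β3 in EpH4 cells), Timp2 (EpRas against EpH4 cells with TGF-β3, and TGF-β3 in EpRas cells) and Timp3 (TGF-β3 in EpRas cells). Of the 20 tests not called, 2 were called under at least 1 alternative, both for the difference between the responses of the lines. There the count of 0 became 2 with a pseudocount of 5 FPKM (Mmp9 and Mmp14) and 1 (Mmp9) with a filter of 1 FPKM, with median-of-ratios scaling, with quantile normalization and with limma-trend, and it ranged from 0 to 1 with 1 library left out. The count of 5 for TGF-β3 in EpRas cells became 3 with only the compared groups in the fit and ranged from 3 to 4 with 1 library left out. In this comparison Timp2 was also lost with quantile normalization, at a difference of -0.76 (limma, adjusted p = 0.0661). With 1 library left out, the other counts ranged from 3 to 4 (EpRas against EpH4 cells without TGF-β3), 4 to 5 (with TGF-β3) and 4 to 6 (TGF-β3 in EpH4 cells).

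The deviations of same-numbered libraries correlated between -0.347 and 0.078, so libraries with the same number did not deviate together. The strongest negative values involved untreated EpRas cells, at -0.347 with treated EpRas and -0.259 with untreated EpH4 cells. Whether libraries pair under other numbers is not known. With the replicate block the counts were 4, 5, 6, 4 and 0 for the lines compared untreated, the lines compared under TGF-β3, TGF-β3 in EpH4 cells, TGF-β3 in EpRas cells and the difference, the call of Timp2 with TGF-β3 in EpRas cells being lost (adjusted p = 0.0975). A block with the numbers of the untreated EpRas libraries crossed, chosen after seeing the data, gave the same counts of 4, 5, 6, 4 and 0.

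In the siRNA libraries the count of 2 members without TGF-β3 became 0 with a pseudocount of 5 FPKM and 4 with pair 1 alone, and the count of 3 with TGF-β3 became 2 at that pseudocount, without Mmp3. At a fold of 1.5, Timp1 was also lower with both pairs without TGF-β3 (-0.65 and -0.68 on the log2 scale). Mmp14 was higher with both pairs and TGF-β3 at that fold (1.03 and 0.64). For TGF-β3 with siNC the count of 4, all higher, became 8 with a fold of 1.5, now with Mmp14 and Timp3 also higher and Mmp3 and Timp2 lower. The causes were not tested. Median-of-ratios scaling left these counts at 2, 3 and 4. Low levels limit Mmp3, Mmp2 and Mmp19.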
